A study of Mus musculus with 2 samples.

Results

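Pheochromocytomas and paragangliomas are tumours of chromaffin cells of the adrenal medulla and of related paraganglia, and inherited loss or activation of a small set of genes predisposes to them. The mouse counterparts of 10 such genes were described: Sdha, Sdhb, Sdhc, Sdhd, Sdhaf2, Vhl, Ret, Nf1, Max and Tmem127. They were found by name in the basic GENCODE M21 annotation of mouse assembly mm10 (GRCm38), where all 10 matched, among 21911 protein-coding genes on 21 chromosomes. The rule that picks them uses names and no measured value.

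The genes fall into a few pathways. Sdha, Sdhb, Sdhc and Sdhd encode the subunits of succinate dehydrogenase, the mitochondrial enzyme that oxidises succinate in the citric acid cycle and passes the electrons to the respiratory chain, and Sdhaf2 encodes a factor that helps attach flavin to the catalytic subunit. VHL recognises hydroxylated hypoxia-inducible factors and marks them for degradation, and succinate that accumulates inhibits the hydroxylases that VHL depends on. RET is a receptor tyrosine kinase of neural crest derivatives, NF1 switches off RAS, MAX is the dimerisation partner of MYC proteins, and TMEM127 is a membrane protein linked to control of mTORC1. Loss of function is the mechanism for these genes in tumours, except for Ret, which is activated.

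Open chromatin was measured by DNase-seq, in which accessible DNA is cut by DNase I and the cut sites are sequenced. The tissue was whole adrenal gland of male B6CASTF1/J mice, first-generation hybrids of C57BL/6J and CAST/EiJ, aged 8 to 10 months, with no treatment or other genotype given in the labels. There were 2 biological replicates in 1 group, each a pool of 6 gland biosamples and 1 library. Nothing in the labels says how many animals the pools hold, so the spread between pools may be partly technical. No contrast exists, and every value below is a description without a test.

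The longer deposited list held 117371 peaks in replicate 1 and 146307 in replicate 2, and the authors listed 272595 and 319381 footprints, short stretches within open DNA that are protected from cutting. The sources used here give no read totals, so depth is unknown. Over 96584 regions open in both pools, the authors' signal was higher in replicate 2 by a median ratio of 1.27. The sources used here do not say whether that signal is a height or a sum over the peak, and the strongest promoter peaks of the 10 genes were 140 to 320 bp wide. In whole tissue, fewer open cells of a type and less opening per cell cannot be told apart. The cortex marker list had promoter peaks in both pools for 9 of 10 genes, and the chromaffin list for 12 of 14. The Schwann and sustentacular list had them for 4 of 8. Over all protein-coding genes the share was 61.9%. In the shorter deposited list these counts were 9, 10 and 2, against 56.7%. Promoters of markers of both cortex and medulla thus had peaks, as did those of most protein-coding genes.

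A peak was counted as a promoter peak where it reached within 1 kb of a transcription start site (TSS) of the gene, and a promoter with such a peak in both pools is called open. Of the 10 susceptibility genes, 9 had one in both pools, against 61.9% of all protein-coding genes. By pool the count was 9 in replicate 1, against 62.9%, and 10 in replicate 2, against 65.3%. The gene that differed was Ret. With the shorter deposited list the count in both pools was 9, against 56.7%. Footprints lay in the promoters of 9 genes in both pools, against 59.7%. Promoter bases with a false discovery rate (FDR) of cleavage of 0.001 or lower were found in both pools for 9 genes, against 57.5%.

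The strongest promoter peaks spanned a wide range of the authors' signal. From high to low the order was Max, Tmem127, Sdhb, Nf1, Sdhc, Sdhd, Sdha, Sdhaf2 and Vhl, with Ret last, and the first 9 kept this order in both pools. All 9 had more signal in replicate 2. Max did not overlap Tmem127 over the pools, but the ranges of each of the other neighbours in the order overlapped. Within each pool the order was the same, and the differences between these neighbours were not tested. Among genes with a promoter peak in the pool the median signal was 2.94 in replicate 1 and 3.81 in replicate 2. Max, Tmem127, Sdhb, Nf1, Sdhc, Sdhd and Sdha lay above that median in both pools, Sdhaf2 lay near it, and Vhl lay below it.

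**Figure D1:**
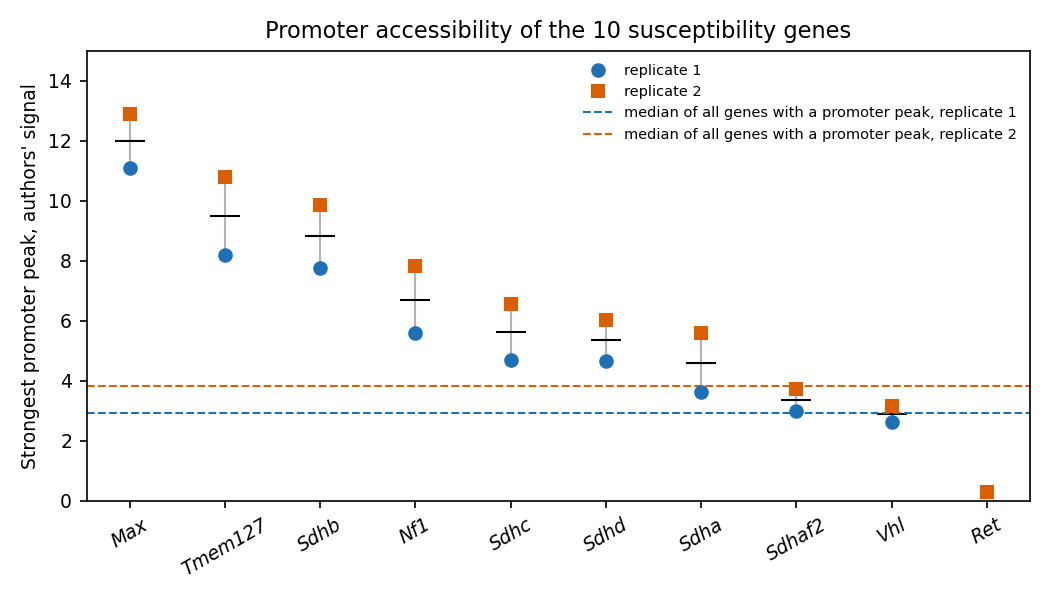
Authors' signal of the strongest promoter peak (vertical axis, scaling not given) for each of the 10 genes (horizontal axis), with a circle for replicate 1, a square for replicate 2 and a black bar for their mean. Dashed lines are the medians of all protein-coding genes with a promoter peak, 2.94 and 3.81. Max is highest at 11.1 and 12.9, and Ret has a single point at 0.288.

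Among the succinate dehydrogenase genes, Sdhb, which encodes the iron-sulfur subunit, had the most open promoter. Sdhb lies on the plus strand of chromosome 4 at 140961203 to 140979193. Its strongest peak covered the TSS and reached 7.76 in replicate 1 and 9.86 in replicate 2 (8.81 ± 1.49, SD, n = 2), higher than in 87.9% and 89.4% of genes with a promoter peak. Sdhb has no divergent protein-coding partner. Its proximal promoter had the lowest CpG content of the 8 genes examined, with an observed over expected CpG ratio of 0.360 against a median of 0.557 over all promoters.

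Sdhc and Sdhd encode the membrane anchor subunits. Sdhc (minus strand, chromosome 1, 171127165 to 171150603) had 4.67 and 6.54 (5.61 ± 1.32, SD, n = 2). Sdhd (minus strand, chromosome 9, 50596357 to 50603812) had 4.67 and 6.04 (5.35 ± 0.968, SD, n = 2). The anchor genes were thus alike in signal, with ranges that overlapped almost entirely. Both peaks covered the TSS.

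Sdha, the flavoprotein subunit, was lower on average than the other subunits, though its range overlapped that of Sdhd. This gene (minus strand, chromosome 13, 74322254 to 74350280) had 3.61 in replicate 1 and 5.58 in replicate 2 (4.60 ± 1.39, SD, n = 2). Its ratio between the pools, 1.55, was the highest of the 9 genes. The lowest was 1.16, at Max, and the median ratio was 1.29, against 1.301 over all genes with a promoter peak in both pools. Sdhaf2 (minus strand, chromosome 19, 10500534 to 10526142) had 2.99 and 3.73 (3.36 ± 0.527, SD, n = 2), close to the middle of all promoters with a peak, at percentiles 50.7 and 49.2.

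Several of the genes start back to back with another gene. Of the 10 genes, 5 had a divergent protein-coding partner whose TSS lay within 1 kb, against 9.00% of all protein-coding genes by annotation alone. In all 5 the strongest promoter peak of the gene and of its partner was the same region. Sdha shared it with Ccdc127, whose TSS was 29 bp away, and Sdhaf2 with Cpsf7, a pre-mRNA cleavage factor gene, at 84 bp. Sdhd shared it with Timm8b, which encodes a chaperone of mitochondrial protein import, at 98 bp, and Tmem127 with Ciao1, which acts in cytosolic iron-sulfur cluster assembly, at 92 bp. The signal of such a region cannot be divided between the partners.

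Among the Schwann and sustentacular markers, Sox10, S100b and Gfap lacked a promoter peak in each pool, Mbp had 0.892 and 1.51, and Erbb3 had 0.728 and 1.61.

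Footprints of both pools repeated at several short stretches of these promoters. Right at the Sdhd TSS, a sequence that matches the NR5A1 half-site CAAGGTCA on the opposite strand was covered by footprints in both pools. NR5A1 is the orphan receptor that drives the steroidogenic program of the cortex. Over all open promoters, 25.2% of matches of this motif lay in footprints of both pools. At Sdhb and Sdhaf2 an ETS motif, CCGGAAG, lay in footprints of both pools, as did 35.8% of its matches over all open promoters. These were 2 of 5 ETS matches in the open regions of the 8 genes, a share near that background. The windows below hold 26 bases of the GRCm38 reference, 5′ to 3′ on the gene's strand, with the motif match in capitals, and are shown because these matches were footprinted in both libraries. They lie at chr9:50603797-50603822 (minus strand), chr4:140961268-140961293 (plus strand) and chr19:10525123-10525148 (minus strand).
Sdhd NR5A1: gttgtagagTGACCTTGagccctcga
Sdhb ETS: tcggagaaaCCGGAAGcggccttcca
Sdhaf2 ETS: cccggaattcCCGGAAGtggcccggt
Counting the TSS base as 0, the Sdhd match ran from -1 to 6, and 8 of its bases were in footprints of replicate 1 and 7 in replicate 2. The Sdhb match ran from 74 to 80, inside exon 1, and the Sdhaf2 match from -23 to -17, with 7 of 7 bases in footprints of each pool at both. A second Sdhaf2 match, at -78 to -72, had 0 bases in footprints of replicate 1 and 4 in replicate 2. The ETS match of Vhl, at 187 to 193, had 4 and 3.

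Vhl, the hypoxia pathway gene, had the lowest promoter signal of the genes open in both pools. Vhl lies on the plus strand of chromosome 6 at 113623959 to 113631633. Its strongest promoter peak had 2.62 in replicate 1 and 3.16 in replicate 2 (2.89 ± 0.383, SD, n = 2), at percentiles 45.7 and 43.3. This peak lay downstream of the TSS, in exon 1, with its midpoint 151 bp past the TSS in replicate 1 and 201 bp past it in replicate 2. Over all genes, 11.7% and 12.1% of the strongest promoter peaks lay downstream of the nearest TSS without covering it, and 68.1% and 68.3% covered a TSS. Vhl had 10 promoter footprints in replicate 1 and 7 in replicate 2.

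Ret was the gene without a reproducible promoter peak. It lies on the minus strand of chromosome 6 at 118151745 to 118197718, with 2 annotated TSSs. In replicate 1 no peak lay within 1 kb of a TSS. In replicate 2 a single peak of 150 bp, at 118196901 to 118197050 in intron 1, had a signal of 0.288, lower than in all but 2.24% of genes with a promoter peak. No footprint lay in the Ret promoter in either pool. Bases with an FDR under 0.05 numbered 0 in replicate 1 and 289 in replicate 2, none reached 0.001, and the lowest FDR was 0.00286. The lists hold called peaks only, so opening too weak to be called is not seen.

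Open regions were nevertheless present in and around Ret in both pools. Within 50 kb of the gene body 7 regions were open in both, and each had more signal in replicate 2, with a median ratio of 1.53. The strongest of those over 1 kb from every TSS lay in intron 4 at 118179701 to 118179920, 17323 bp past the TSS, with 0.884 in replicate 1 and 1.39 in replicate 2. An upstream region, at 118221701 to 118221940 and -24102 bp from the TSS, had 0.884 and 1.13. In intron 1, regions 1833 and 8263 bp past the TSS had 0.386 and 0.592, and 0.364 and 0.520. The region at 1833 bp lies outside the 1 kb interval but within 2 kb, so with promoters of 2 kb Ret had a promoter peak in both pools. The strongest region near Ret, at 3.56 and 4.88, was the promoter of Csgalnact2, an enzyme gene of chondroitin sulfate synthesis.

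Nf1 encodes neurofibromin, which stimulates hydrolysis of the GTP bound to RAS. It lies on the plus strand of chromosome 11 at 79339693 to 79581612 and is the longest of the 10 genes, at 241920 bp. Its strongest promoter peak had 5.58 in replicate 1 and 7.83 in replicate 2 (6.70 ± 1.59, SD, n = 2), at percentiles 76.1 and 80.8. This peak held the same 240 bases in both pools and included the annotated gene start at 79339693. It covered no TSS of the basic annotation, and its midpoint lay at -212 bp, upstream of the nearest such TSS. The sequence is that of the peak at chr11:79339461-79339700 (GRCm38, plus strand), with the 53 bases that lay in footprints of both pools in capitals.
Nf1 promoter peak: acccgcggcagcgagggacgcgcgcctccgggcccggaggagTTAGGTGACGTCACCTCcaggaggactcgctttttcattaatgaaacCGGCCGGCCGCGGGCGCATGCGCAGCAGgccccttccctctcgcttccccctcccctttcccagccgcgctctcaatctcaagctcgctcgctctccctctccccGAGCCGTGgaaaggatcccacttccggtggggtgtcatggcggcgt
The first run in capitals holds the palindrome TGACGTCA, the full cAMP response element (CRE) bound by CREB family factors, at -317 to -310 from the representative TSS. The second holds an NRF1 motif, GCGCATGCG, which matched on both strands at overlapping positions, from -262 to -253. All bases of these CRE and NRF1 matches lay in footprints of both pools. CRE and NRF1 matches were in footprints of both pools at 89.4% and 94.3% of their occurrences in open promoters of all genes, so footprints at these motifs are common. An ETS match at -150 to -144 was in a footprint of replicate 2 and not of replicate 1.

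Max had the most open promoter of the set. It lies on the minus strand of chromosome 12 at 76937269 to 76962201. Its strongest peak had 11.1 in replicate 1 and 12.9 in replicate 2 (11.99 ± 1.27, SD, n = 2), higher than in 96.4% of genes with a promoter peak in either pool. The midpoint lay upstream of the nearest TSS, at -179 bp in replicate 1 and -189 bp in replicate 2. The stretch open in both pools is given for chr12:76962241-76962540 (GRCm38, minus strand), with the 90 bases in footprints of both pools in capitals.
Max promoter peak: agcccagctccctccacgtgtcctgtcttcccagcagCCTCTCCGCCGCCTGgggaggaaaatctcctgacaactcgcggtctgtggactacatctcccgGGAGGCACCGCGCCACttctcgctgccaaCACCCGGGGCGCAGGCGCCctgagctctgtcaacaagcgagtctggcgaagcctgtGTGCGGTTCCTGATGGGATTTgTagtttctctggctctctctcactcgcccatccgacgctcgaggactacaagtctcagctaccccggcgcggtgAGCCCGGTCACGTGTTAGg
The last run in capitals holds CACGTG, the E-box that MAX itself binds as a dimer with MYC or MXD proteins. All 6 of its bases, at -66 to -61 from the representative TSS, lay in footprints of both pools. A second E-box, at -341 to -336 in the same open region, lay in none. Over all open promoters 35.4% of E-box matches lay in footprints of both pools. Max was the only one of the 8 genes searched with an E-box in the 250 bases before to 50 after the TSS, against 7.76% of all promoters. A match of ACTACAA, part of the ZNF143 motif, at -151 to -145 had 6 of its 7 bases in footprints of replicate 1 and 4 in replicate 2, whereas a second one at -104 to -98 was in none. In the open regions of the 8 genes, 1 of 3 such matches lay in footprints of both pools, against 12.3% over all open promoters.

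Tmem127 had the next highest promoter signal. It lies on the plus strand of chromosome 2 at 127247908 to 127261107. Its strongest peak had 8.20 in replicate 1 and 10.8 in replicate 2 (9.49 ± 1.84, SD, n = 2), at percentiles 89.6 and 92.1, and is the region shared with Ciao1. The longest run of bases in footprints of both pools at any of the 8 genes, 36 bases, lay just upstream of its TSS. It is shown in capitals within the 91 bases before the TSS, chr2:127247817-127247907 (GRCm38, plus strand), and held no match of the motifs searched.
Tmem127 upstream: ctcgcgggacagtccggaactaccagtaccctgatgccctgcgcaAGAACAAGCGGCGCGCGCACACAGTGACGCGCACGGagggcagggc

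**Figure D2:**
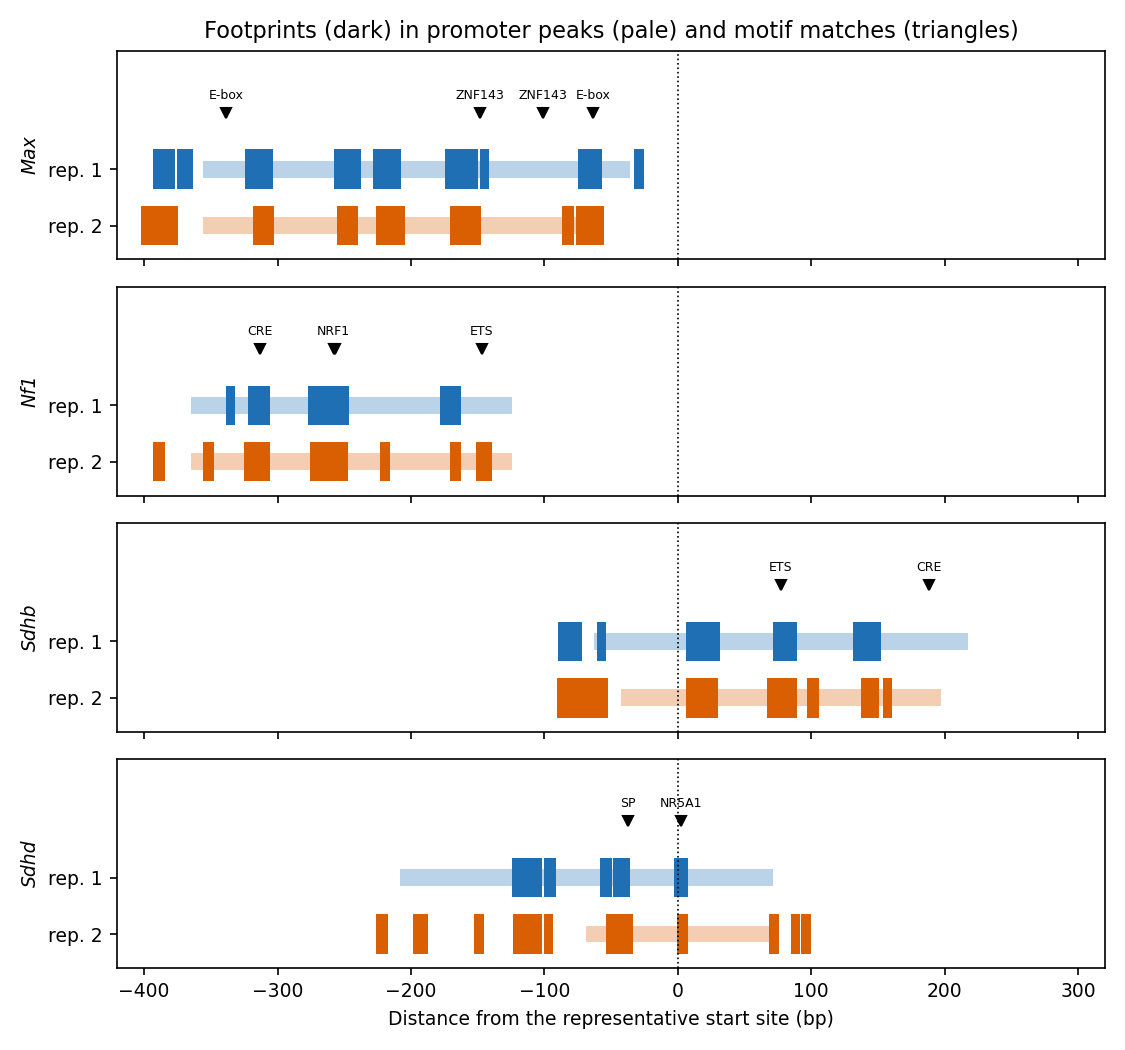
Footprints (dark bars) and promoter peaks (pale bars) of replicate 1 (upper row, blue) and replicate 2 (lower row, orange) at Max, Nf1, Sdhb and Sdhd, by distance from the representative TSS in bp (horizontal axis). Triangles mark matches of the motifs named above them, for a selection of motifs per gene. The E-box of Max at -66 to -61, the CRE and NRF1 matches of Nf1, the ETS match of Sdhb and the NR5A1 match of Sdhd sit on dark bars in both rows.

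The motif search covered the 8 genes with an entry in the RefSeq promoter table on GRCm38, which does not include Sdhc and Ret. Each motif was matched on both strands as plain letters, and a match is a description, not a bound site. In the 250 bases before to 50 after the TSS, GGGCGG, the box bound by SP factors, was found in 6 genes, against 45.6% of all promoters. CCGGAAG was found in Sdhd, Sdhaf2 and Nf1, against 11.2%. ATTGG, the core bound by NFY, was found in Sdha and Sdhb, against 38.4%. AANATGGCG, the YY1 motif, was found in Sdhaf2, against 3.17%, and CAAGGTCA in Sdhd, against 1.34%. ACTACAA was found in Max and Tmem127, against 3.76%. GCGCATGCG, the ZBTB33 motif CTCGCGAG, TGACGTCA and the AP-1 motif TGANTCA were found in none of the 8, against 2.53%, 1.20%, 2.48% and 6.69%. The CRE and NRF1 matches of Nf1 lie further upstream than this window reaches. GGGCGG can overlap other GC-rich motifs, and NRF1 letters overlap their own reverse complement.

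Within the stretches of the strongest promoter peak open in both pools, 1780 bases over the 8 genes, 26 motif matches were found. Of these, 12 had at least 50% of their bases in footprints of both pools, against 40.9% of such matches over all promoters, a share close to that background, and 8 were in footprints of neither. Bases in footprints of both pools made up 22.2% of the stretches, against 18.0% over 11897 promoter regions. At Sdha, Sdhd, Sdhaf2 and Vhl the matches in footprints of both pools included GGGCGG on 1 of the strands. These were 4 of 9 GGGCGG matches, against 49.2% over all open promoters, a share near that background. A TGACGTCA match of Sdhb, at 185 to 192 from the TSS, was in no footprint of either pool. The 10 promoters held 73 footprints in replicate 1 and 77 in replicate 2. Leaving out Ret, the count per gene ranged from 5, at Sdhb and Sdhd, to 12, at Nf1, in replicate 1, and from 6 to 11 in replicate 2. The median was 8 in each pool over the 9 genes, against 7 and 8 over all genes with a promoter peak in both.

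Beyond the promoters, the 10 intervals from 50 kb before to 50 kb after each gene body held 146 peaks in replicate 1 and 171 in replicate 2. Merged, these gave 190 regions, of which 120 (63.2%) were open in both pools, 23 in replicate 1 alone and 47 in replicate 2 alone. Over the genome 60.02% of merged regions were open in both. By place, 15 of the 120 lay in a promoter of the susceptibility gene itself and 26 in a promoter of another gene. A further 18 lay in an intron of the gene, 24 in an intron of another gene, 4 in an exon and 33 between genes. The intervals held 382 footprints in replicate 1 and 444 in replicate 2. Footprints that overlapped one of the other pool were 56.3% and 46.2% of these, against 51.1% and 42.6% of all footprints.

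**Figure D3:**
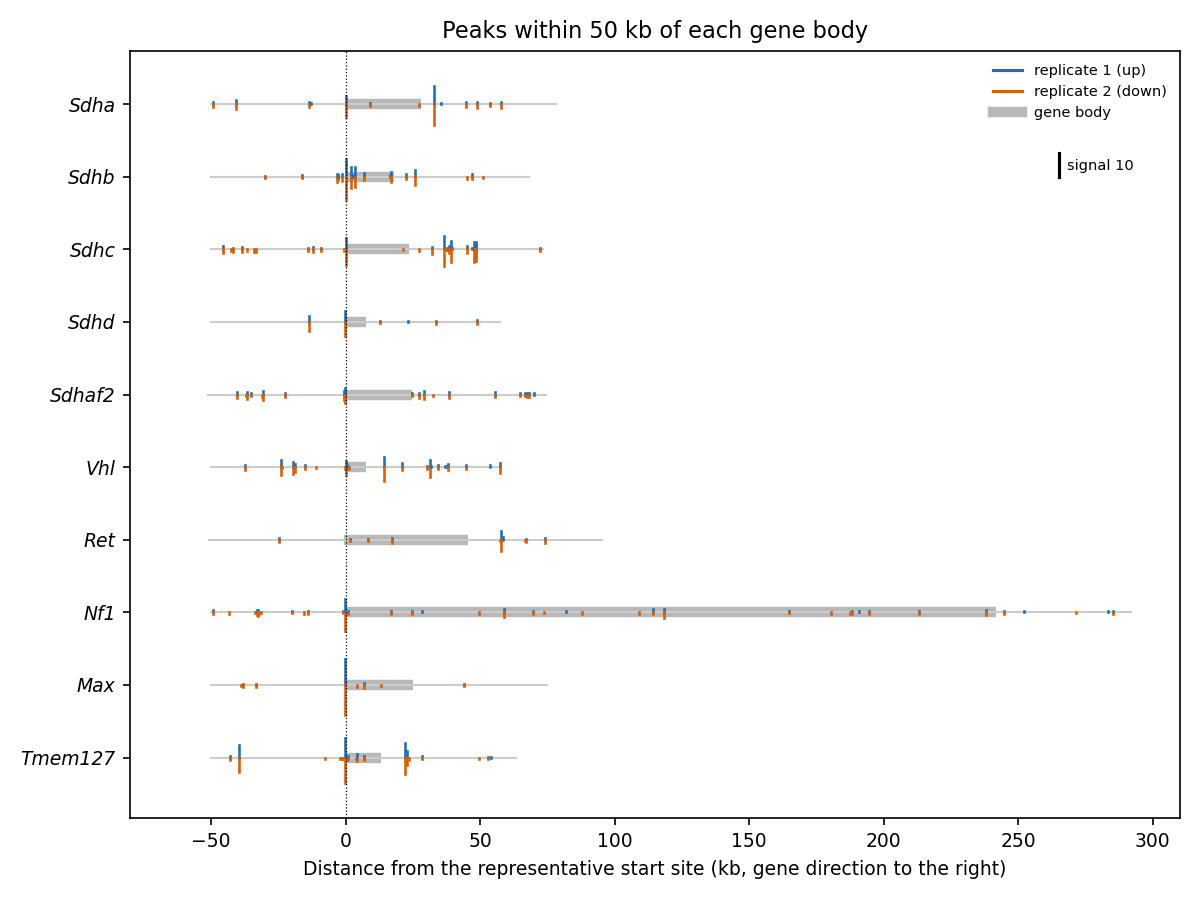
Peaks within 50 kb of the 10 gene bodies (one row per gene, grey bar for the gene body) by distance from the representative TSS in kb, with the direction of the gene to the right. Line height is the authors' signal, upward for replicate 1 and downward for replicate 2, and the black scale line stands for a signal of 10. Sdhc has a group of peaks downstream of its body, and Max has 5 peaks in replicate 1 and 8 in replicate 2, its promoter included.

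The density of open regions differed among the loci. Sdhc had 14.6 regions open in both pools per 100 kb, more than 93.2% of protein-coding genes. Vhl and Sdhaf2 lay at percentiles 89.5 and 88.5. Max, with the strongest promoter, lay at percentile 33.2. Sdhd had 4.65 and Ret 4.80, also below the median of 6.20 over all protein-coding genes. Nf1 had 6.14, and Sdha, Tmem127 and Sdhb had 7.81, 9.72 and 11.02. The median over the 10 genes was 8.76.

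Away from promoters, the strongest regions stood at Sdhb, Sdhc and Vhl. In intron 1 of Sdhb, 1927 bp past the TSS, a region at 140963021 to 140963240 had 3.97 in replicate 1 and 4.55 in replicate 2, and a second at 140964741 to 140965000 had 4.09 and 4.35. In all, 4 regions open in both pools lay in the introns of Sdhb, whose body spans 17991 bp. Downstream of Sdhc, between genes and nearest to Cfap126, a cilia gene, a region at 171111101 to 171111600 had 3.67 and 5.35. Another group of 3 regions from 171101801 to 171103160 had 2.14, 2.97 and 3.17 in replicate 1 and 3.24, 4.76 and 5.16 in replicate 2. Downstream of Vhl, 31301 bp past its TSS in an intron of another gene, a region at 113655141 to 113655380 had 3.05 and 3.96. None of these regions is assigned to a gene by the data.

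At the remaining loci the strongest region over 1 kb from every TSS was weaker. Nf1 had 1.53 and 2.44 in intron 29, at 79458021 to 79458220, and 8 regions open in both pools in its introns. Inside intron 36, the promoter of Omg, a myelin glycoprotein gene nested in Nf1, had 0.483 and 0.456. Tmem127 had 1.52 and 1.60 in intron 2, and Sdhaf2 had 1.46 and 1.82 downstream, nearest to Ppp1r32. Max had 0.936 and 1.14 in intron 2. Sdha had 0.921 and 1.49 between genes, and Sdhd had 0.617 and 1.02 in an intron of another gene, nearest to Il18. Promoters of neighbours were often stronger than these, such as Pdcd6 near Sdha with 7.90 and 8.62, Stard7 near Tmem127 with 6.10 and 6.99, and Irak2 near Vhl with 4.29 and 5.68.

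Genes of the same pathways were read from 11 lists. Promoter peaks in both pools were found for 20 of 20 other pheochromocytoma and paraganglioma genes, with Mdh2, a malate dehydrogenase, highest at 11.6 and 14.1. Among succinate dehydrogenase assembly and flavin genes 8 of 9 matched symbols were open. Hspa9, the mitochondrial HSP70, had 10.5 and 13.03, Flad1, which makes flavin adenine dinucleotide, had 9.53 and 11.6, and the assembly factor gene Sdhaf1 had no promoter peak. All 13 citric acid cycle enzyme genes of the other list were open, with Mdh2 again highest. These counts stand against the same 61.9% over all protein-coding genes, and 4 genes, Mdh2 among them, are in both the first and the last of these lists.

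The next lists stand against the same 61.9%. All 12 genes of the VHL ligase and hypoxia factor list were open, led by Rbx1, the ligase's RING subunit, at 8.23 and 9.86, and Hif1a at 7.25 and 8.27. All 17 RAS pathway genes were open, led by Map2k1, a MEK kinase, at 10.5 and 13.6. The MAX network had 12 of 12, and the repressors Mxd1, at 16.3 and 19.2, and Mnt, at 13.5 and 15.6, exceeded Max itself, whereas Myc had 3.69 and 4.88. The mTORC1 list had 17 of 17, led by Akt1s1, the inhibitor PRAS40, at 13.4 and 16.6, and Rragc, a RAG GTPase, at 13.7 and 15.8.

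Of 10 genes for the ligands and coreceptors of RET, 5 had a promoter peak in both pools, near the background of 61.9% of all protein-coding genes. Nrtn, for neurturin, was highest at 1.90 and 3.05, and Pspn, for persephin, was next by the mean, at 0.966 and 1.23. Artn, for artemin, had 0.736 and 1.32, more than Pspn in replicate 2. Gfra1, the coreceptor for GDNF, had 0.334 and 0.536. Gdnf, Gfra3, Gfra4 and Gfral lacked a promoter peak in each pool, and Gdf15 had 0.966 in replicate 1 and none in replicate 2. In the shorter peak list 1 of the 10, Nrtn, was open in both pools, against 56.7% of all protein-coding genes. The chromaffin list had Slc18a1, a vesicular monoamine transporter, at 5.61 and 8.59 and Gata3 at 3.30 and 4.53. Pnmt, which encodes the enzyme that makes adrenaline, had 0.695 in replicate 2 and no promoter peak in replicate 1. In the cortex list Mrap had 5.86 and 7.15, Star had 5.44 and 6.52, and Hsd3b1 had no promoter peak.

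**Figure D4:**
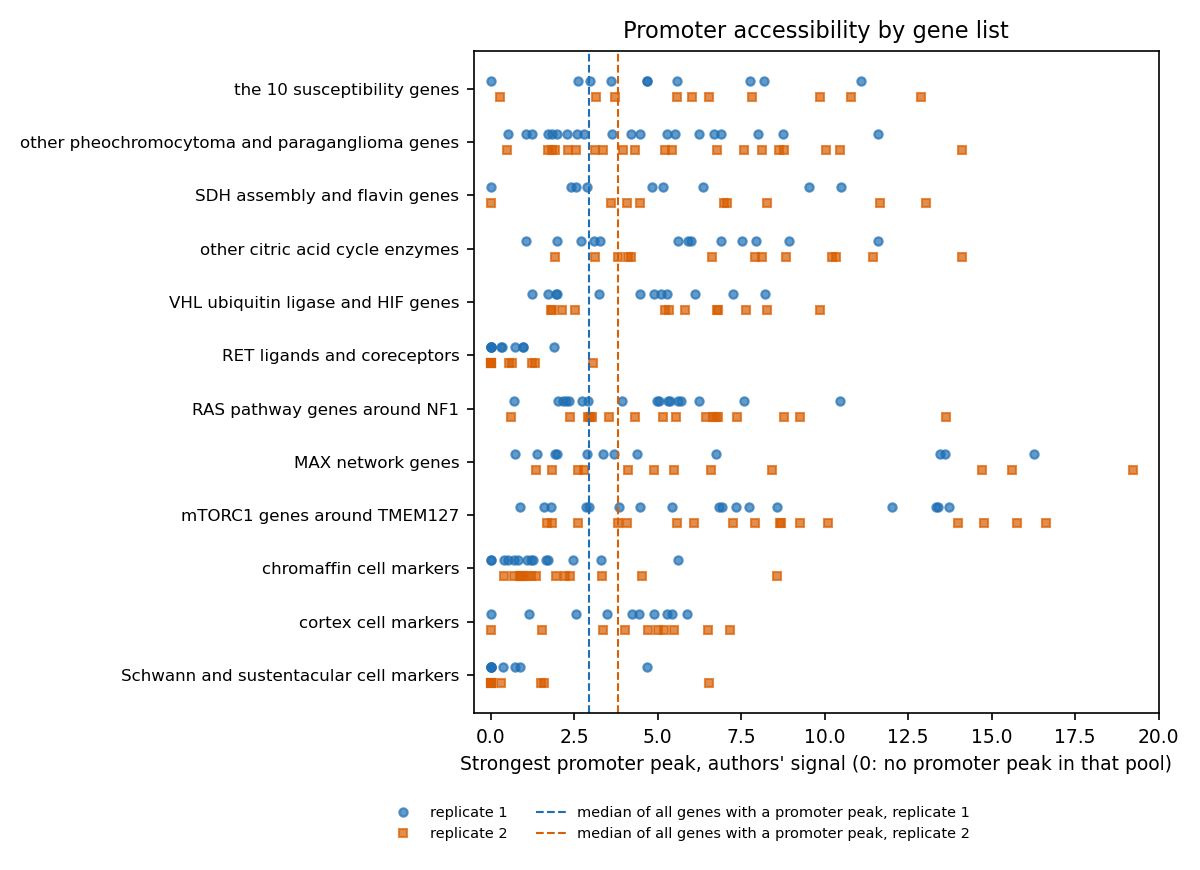
Authors' signal of the strongest promoter peak (horizontal axis) for every gene of the 10 susceptibility genes and of 11 related lists (rows), with circles for replicate 1 and squares for replicate 2, and points at 0 for genes without a promoter peak in that pool. Dashed lines are the medians of all protein-coding genes with a promoter peak, 2.94 and 3.81. Genes of RET ligands and coreceptors all lie at or below 3.05, while the MAX network reaches 19.2.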

How the data were processed

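Each of the 2 pools had 2 peak lists, a footprint list and a table of FDR values on mm10, per the labels and the deposited readme texts. For the aligner, peak caller and footprint caller, names and versions were not stated in these sources. Peaks carry the authors' signal, whose scaling is not stated. The deposited signal values are whole multiples of a step, which is 0.00743 for replicate 1 and 0.00799 for replicate 2. The deposited FDR table holds p-values adjusted by the authors and lists only intervals under 0.05. The other deposited value, 1 constant of 0.01 per footprint in the authors' files, ranks nothing.

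The longer list of each pool was used. Overlap meant at least 1 bp. A promoter is 1 kb either side of any basic TSS, and its signal is the highest among its peaks, as mean ± SD of the pools. A percentile of promoter signal is the share of genes with a promoter peak in the pool that had less signal. Tied genes, the gene itself included, were placed at the middle of their ranks. Regions open in both pools are merged peaks holding a peak of each. The representative TSS is that of 1 transcript per gene. Sequences came from RefSeq (GRCm38), the C57BL/6J reference, and alleles of the hybrid were not separated. Motif letters were matched in this reference sequence, in windows around the representative TSS and in the open stretches. The RefSeq promoter table served only to choose which of the susceptibility genes were searched. The windows behind the shares of all promoters were those of all 21911 protein-coding genes.

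Named genes were the 10 genes, the 2 genes of each related list with the highest mean promoter signal, list genes without a peak in both pools (at most 4), and partners sharing a promoter region. Gdf15, Gfra1, Artn, Myc, Erbb3, Omg, other neighbouring promoters and further regions near the genes were named after their values were seen. Some genes that this rule names are not reported here. The members and lists were chosen with earlier results of these data known. The counting scripts were checked on simulated data. Python 3.11.15, numpy 2.4.6, bedtools 2.31.1 and matplotlib 3.10.9 were used.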

Additional observations from a re-analysis of the deposited data

How the results depend on the processing

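No paired analysis was possible because the labels give 1 group and no contrast. Over 36 results and 101 alternative settings, 88 values stayed within the spread between pools or within 1.5 times the count, and 13 moved. Leaving out 1 pool could not move a promoter signal, because each of 2 values lies within 1 SD of their mean. At the 9 open genes the other promoter settings returned the same signal. Settings that removed the Ret peak, the shorter list and the 50% of peaks with the most signal, were not counted. The 88 are therefore no measure of robustness. The number of genes with a promoter peak in both pools ranged from 9 to 10 and the number with promoter footprints was 9 in each pool alone. Promoters of 2 kb gave Ret 0.592 in replicate 2. Peaks near the genes, 158.5 on average over the pools, became 71 within 10 kb, 265.5 within 100 kb and 101 in the shorter list, and ranged from 146 to 171 by pool. Footprints, 413 on average, became 197.5 within 10 kb and 715.5 within 100 kb, and ranged from 382 to 444 by pool. In the shorter list RET ligands and coreceptors fell from 5 open genes to 1, and the Schwann and sustentacular list from 4 to 2. From 500 bases before to 500 after the TSS, ETS matches were found in 6 of the 8 genes searched, against 19.4% of all promoters. In the same window NFY was found in 5, against 70.0%, and NRF1 in 1, against 3.39%. YY1 was found in 2, against 6.77%, and CRE in 2, against 3.35%. Single-pool promoter signals ranged over the values given for each gene above. Depth is unknown, and no call threshold of the authors could be varied beyond the choice of list.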
